A study of Rattus norvegicus with 6 samples.

Results

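Integrins and focal adhesion genes were followed in the small arteries that feed the brain of Dahl rats, bred for a blood pressure that responds to dietary salt. The genes were taken as every symbol on the array that begins with Itga or Itgb, together with 27 named genes of the adhesion plaque, its links to actin and membrane, caveolae and tetraspanin complexes. Of these 43 symbols 42 had a probe set here, out of 10411 genes on the array, and Lpp was not analysed here. The 42 comprised 9 integrin α subunits, 4 integrin β subunits, 3 genes named after a β subunit that are not subunits themselves, 13 plaque genes, 6 linkers, 2 caveolins, and Cd44 with 4 tetraspanins. Itga5, Itgav and Itgb3, among the best known vascular integrin genes, were not analysed here.

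The rats went onto their diet at 7 weeks of age. Low salt chow held 0.4% NaCl and high salt chow 8%. The labels give 12 weeks of diet for low salt, and either 11 or 12 weeks for high salt, depending on the field read. Each of 3 arrays per diet held RNA pooled from the middle and posterior cerebral and posterior cerebellar arteries of 3 rats, so that each diet stands for 9 rats. The vessels were intact, so that all cells of the wall and any brain tissue attached to it contribute, and in such bulk RNA fewer cells of a type and less RNA per cell cannot be told apart. Some arteries were snap frozen and others kept in a preservative, without a record of which.

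Integrins are receptors made of one α and one β chain that span the cell membrane and hold the cell to its matrix. Outside the cell they bind fibronectin, laminin, collagen and related proteins. Inside it the β chain is held by talin, and through vinculin, α-actinin and zyxin to actin filaments, while integrin-linked kinase and focal adhesion kinase signal from the same site. In the artery wall these adhesions carry the force of blood pressure between matrix and smooth muscle.

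No integrin or focal adhesion gene passed the test between diets. Values are log2 units of the deposited expression measure, differences are high salt minus low salt with the moderated standard error (SE) of limma, and a call needed a Benjamini-Hochberg adjusted p below 0.05 over all probe sets. By limma 0 of 42 were called, where 0% of 15866 probe sets were called, and the lowest adjusted p among the 42 was 0.803. At an unadjusted p below 0.05 stood 3 of the 42, all higher after high salt (Itgb5, Arpc1b and Ezr), where 6.43% of all genes did so, 5.72% higher and 0.711% lower. The ranges of the diets were apart for 5 of the 42 (11.9%), again all higher (these 3 with Cd63 and Cd151), where they were apart for 12.0% of all genes, 8.64% higher and 3.32% lower. Both shares lie near the background of the whole array. Among the 42 genes 23 had a positive difference and 19 a negative one, and the median was 0.06. Of all genes 60.0% had a positive difference, and their median was 0.07. With probe sets under the 40th percentile of mean value dropped, the median was 0.09 for the 36 of these genes left. That of all genes left was 0.18.

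Promoter sequences are shown for the 5 genes whose arrays did not overlap between diets, a choice made on the ranges alone. The gap between diets ran from 0.00085 (Cd151) to 0.33 (Arpc1b) log2 units, and none of the 5 was called. Such genes made up 11.9% of the genes followed here and 12% of all genes. Each sequence is the 250 bases before the gene's start in RefSeq's rat assembly GRCr8, read 5′ to 3′ on the gene's strand. Capitals mark the GC box (GGGCGG, or CCGCCC on the other strand), a binding site of Sp1-type factors, and the E-box (CACGTG, the same on both strands). The windows are chr11:80449374-80449623 (minus strand) for Itgb5, chr12:14609489-14609738 (minus) for Arpc1b, chr1:49416574-49416823 (minus) for Ezr, chr7:1921894-1922143 (plus) for Cd63 and chr1:205994050-205994299 (plus) for Cd151.
Itgb5: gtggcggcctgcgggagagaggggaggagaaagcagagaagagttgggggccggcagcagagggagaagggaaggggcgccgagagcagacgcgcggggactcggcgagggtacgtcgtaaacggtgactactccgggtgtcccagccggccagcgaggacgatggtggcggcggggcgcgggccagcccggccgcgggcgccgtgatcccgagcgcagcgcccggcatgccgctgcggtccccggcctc
Arpc1b: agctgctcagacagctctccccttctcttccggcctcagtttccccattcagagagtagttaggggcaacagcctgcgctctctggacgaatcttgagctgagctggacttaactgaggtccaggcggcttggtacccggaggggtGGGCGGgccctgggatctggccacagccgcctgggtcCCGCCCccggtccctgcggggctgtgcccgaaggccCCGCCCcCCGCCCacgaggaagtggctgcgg
Ezr: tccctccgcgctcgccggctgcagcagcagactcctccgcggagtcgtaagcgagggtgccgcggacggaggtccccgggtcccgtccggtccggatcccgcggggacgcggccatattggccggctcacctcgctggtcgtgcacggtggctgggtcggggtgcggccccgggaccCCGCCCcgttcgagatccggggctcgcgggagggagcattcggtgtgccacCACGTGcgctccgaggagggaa
Cd63: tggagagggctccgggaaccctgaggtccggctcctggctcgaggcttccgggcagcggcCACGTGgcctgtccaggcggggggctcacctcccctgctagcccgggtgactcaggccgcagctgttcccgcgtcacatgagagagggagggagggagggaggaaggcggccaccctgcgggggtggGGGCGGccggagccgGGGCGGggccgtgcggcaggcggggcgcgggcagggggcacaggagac
Cd151: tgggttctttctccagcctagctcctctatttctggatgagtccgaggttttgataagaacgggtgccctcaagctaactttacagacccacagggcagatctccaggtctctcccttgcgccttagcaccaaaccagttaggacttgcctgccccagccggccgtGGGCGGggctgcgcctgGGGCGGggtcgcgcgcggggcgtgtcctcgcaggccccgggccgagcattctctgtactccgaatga

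A GC box stood in the window of 4 of these 5 genes, with 4 copies for Arpc1b, 1 for Ezr and 2 each for Cd63 and Cd151, and Itgb5 had none of those letters. An E-box stood 22 bases before the start of Ezr and 190 before that of Cd63. RefSeq windows were matched for 34 of the 42 genes. A GC box was found for 19 of them (55.9%) and in 30.5% of all 33469 windows. An E-box was found for 5 (14.7% against 5.59%), an AP-1 site (TGACTCA or TGAGTCA) for 2 (5.88% against 4.05%), and the CArG box, the motif of serum response factor, for 0 (against 1.5%). Cd63 was among the 2 with an AP-1 site (tgactca), which is left in small letters above. The 34 were counted by gene and the background by window, over all RefSeq windows rather than the genes on the array. The shares are therefore not counted alike. These are matches of letters in a short window and describe the sequence only.

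The arrays themselves differed in ways that touch the values that follow. Pearson correlation between arrays (across probe sets, not independent of each other) ran from 0.980 to 0.987 among high salt arrays, from 0.919 to 0.968 among low salt arrays and from 0.926 to 0.988 across diets. The interquartile range was 2.57 on low salt replicate 1 and from 2.92 to 3.18 on the other arrays. Array medians ran from 7.96 to 8.17. Scaling therefore matters for small differences: the median of all genes was 0.07 as deposited, -0.06 after median centring and -0.02 after quantile normalization. For 31 of the 42 genes (73.8%, against 71.0% of all genes) the SD was larger on low salt than on high salt. Low salt replicate 1 was the lowest of the 6 arrays for 17 of the 42 (40.5%, against 36.5% of all genes), and low salt replicate 2 for 14 (33.3%, against 23.1%). Low salt replicate 1 was also the highest array for 10 of the 42 (23.8%, against 29.1% of all genes). The mean of 10 smooth muscle markers was 12.13, 11.44 and 12.23 on low salt replicates 1 to 3 and 11.58 to 11.71 on high salt, and 10 of the 10 were lower after high salt. The mean of 10 astrocyte markers was 9.22, 10.55 and 8.55 on low salt and 10.24 to 10.56 on high salt, and 9 of the 10 were higher. Of all genes 60.0% were higher. Among the astrocyte markers Aqp4 was as low as 5.02 on low salt replicate 3, below the arrays' lower quartile (6.53 to 6.65).

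**Figure D1:**
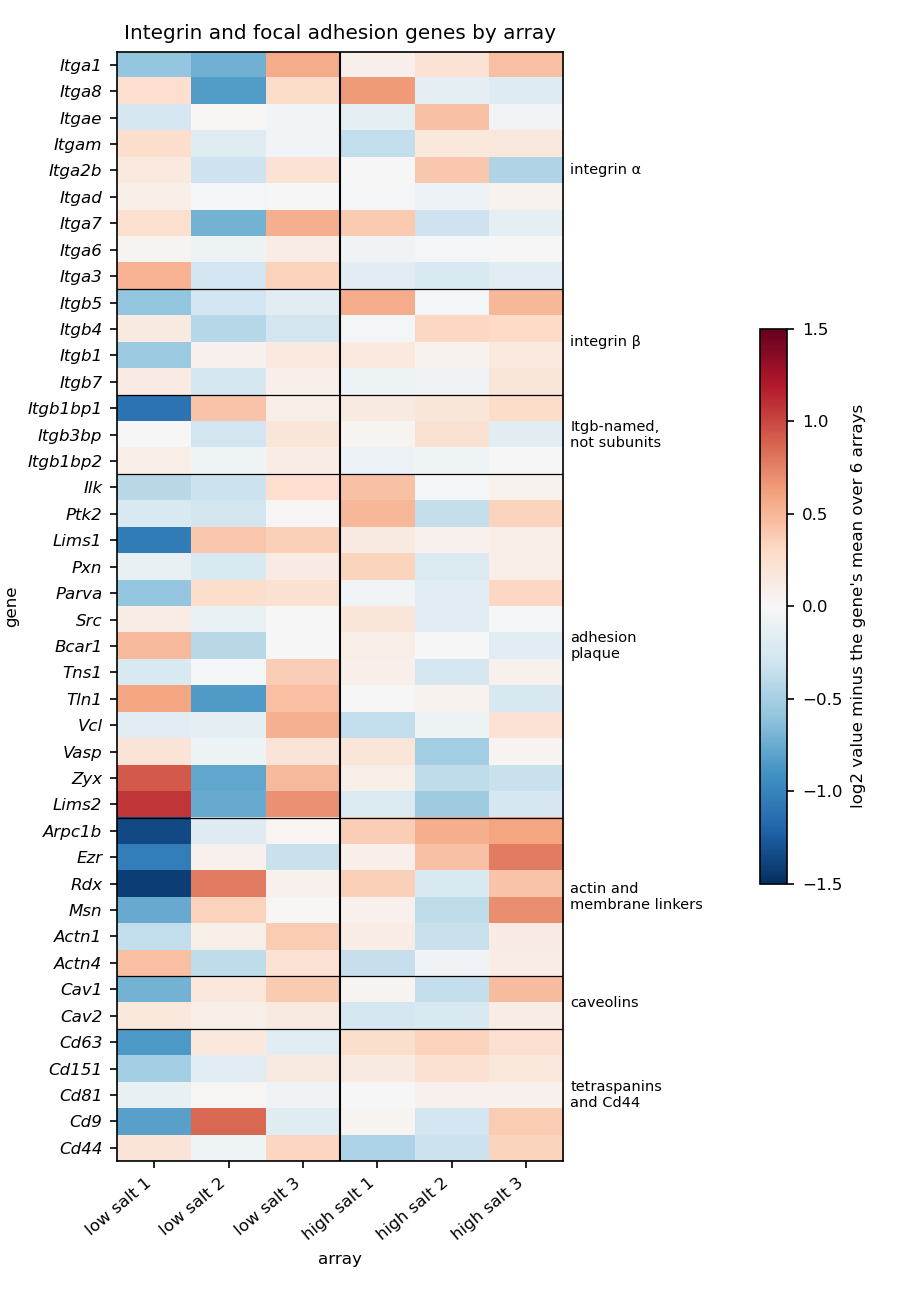
Heat map of the 42 genes (rows, by role) on the 6 arrays (columns, low salt left of the black line), coloured by the log2 value minus the gene's own mean over the 6 arrays. The strongest colours lie in low salt replicates 1 and 2, which were the lowest array for 17 (40.5%) and 14 (33.3%) of the genes, against 36.5% and 23.1% of all genes.

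Among the β subunits, 4 of 4 were higher after high salt, with differences from 0.04 to 0.68 and a median of 0.31 (3 of 4 and 0.18 after median centring). The largest was that of Itgb5, the partner of the αv chain in a receptor for vitronectin. Its low salt arrays stood at 8.97, 9.27 and 9.40 and its high salt arrays at 10.11, 9.54 and 10.05. The highest low salt array lay 0.14 below the lowest high salt array, that of replicate 2. The difference was 0.68 ± 0.20 (SE), or 1.61-fold, with a 95% interval from 0.19 to 1.18 and an adjusted p of 0.803 (limma). After quantile normalization it was 0.45. A second, dimmer probe set of Itgb5 gave 1.06 ± 0.53, from 6.61, 8.30 and 8.03 on low salt to 9.12, 8.02 and 8.97 on high salt, and there the diets overlapped.

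Itgb4, the laminin-binding chain of hemidesmosomes, stood at 8.89, 8.32 and 8.48 on low salt and at 8.73, 9.06 and 9.05 on high salt. High salt replicate 1 lay among the low salt values, and the difference of 0.38 ± 0.18 became 0.25 after median centring and 0.18 after quantile normalization. Itgb1, the chain shared by most matrix-binding integrins, was 12.05, 12.68 and 12.75 on low salt and 12.75, 12.66 and 12.76 on high salt. Apart from low salt replicate 1 the 5 arrays lay close together, and the difference of 0.23 ± 0.20 was 0.01 without that array. The second probe set of Itgb1 gave 0.64 ± 0.53, with high salt replicate 3 at 11.34 and the other 5 arrays from 9.02 to 10.31. Itgb7, the partner of αE and α4 on lymphocytes, differed by 0.04 ± 0.15, and its sign turned after median centring.

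The 9 α subunits did not share a direction, with 3 higher and 6 lower, a median of -0.03 and a range from -0.38 to 0.49. All 9 differences were smaller than 2 SE, and without low salt replicate 1 6 of the 9 were higher, with a median of 0.06. Itga1, a collagen receptor chain abundant in smooth muscle, stood at 8.82, 8.68 and 9.95 on low salt and at 9.47, 9.61 and 9.85 on high salt. The high salt arrays lay between the low salt ones, and the difference of 0.49 ± 0.35 was 0.26 without low salt replicate 2 or after quantile normalization and 0.89 without low salt replicate 3. Itga8, which binds fibronectin and nephronectin and marks contractile smooth muscle, was 8.99, 7.91 and 9.02 on low salt and 9.38, 8.61 and 8.55 on high salt. Its difference of 0.21 ± 0.38 turned to -0.02 after quantile normalization and to -0.16 without low salt replicate 2.

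The 3 laminin-binding α chains, Itga3, Itga6 and Itga7, were each on the low side, and none by as much as 2 SE. Itga3 stood at 10.62, 9.81 and 10.44 on low salt and from 9.87 to 9.94 on high salt. Low salt replicate 2 was the array that overlapped, and the difference of -0.38 ± 0.22 (95% interval -0.92 to 0.16) was -0.62 ± 0.11 without it (adjusted p = 0.145, limma) and -0.21 without low salt replicate 1. Itga7, the laminin receptor chain of muscle, was 11.32, 10.38 and 11.63 on low salt and 11.48, 10.78 and 10.94 on high salt, a difference of -0.05 ± 0.37. Its 2 other probe sets gave 0.23 ± 0.38 and, at a level of 5.42, 0.02 ± 0.11. Itga6 differed by -0.05 ± 0.09.

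Chains of blood cells made up the rest of the α group. Itgae, the αE chain of lymphocytes that bind E-cadherin, was 7.09 to 7.35 on low salt and 7.21, 7.78 and 7.30 on high salt, a difference of 0.18 ± 0.18. Without high salt replicate 2, its highest array, the difference was 0.00460. Itgam and Itgad, chains of myeloid cells, differed by -0.03 ± 0.20 and -0.04 ± 0.09, and Itga2b, the chain of the platelet fibrinogen receptor, by -0.03 ± 0.26. The signs of Itgam and Itga2b turned with 1 array left out. Beside these, the mean of 8 leukocyte markers was 7.31 to 7.46 on low salt and 7.21 to 7.54 on high salt, and that of 3 platelet markers, Itga2b among them, was 8.36 to 8.70 and 8.30 to 8.95. Of these markers, 3 of leukocytes and 1 of platelets had a mean below the arrays' lower quartile.

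The 3 genes named after β subunits were Itgb1bp1, which binds the β1 tail and holds back its activation, Itgb1bp2 (melusin, a muscle protein) and Itgb3bp (a centromere protein). Itgb1bp1 was 8.04 on low salt replicate 1 and from 9.23 to 9.57 on the other 5 arrays. Its difference of 0.39 ± 0.39 turned to -0.06 without that array. Itgb1bp2, the 1 gene of the 42 whose mean lay below the arrays' lower quartile, was 5.89, 5.72 and 5.89 on low salt and 5.70, 5.73 and 5.79 on high salt, an overlap with a difference of -0.10 ± 0.10. Itgb3bp was 8.95, 8.66 and 9.12 on low salt and 8.98, 9.17 and 8.77 on high salt. Its diets overlapped too, and the difference of 0.06 ± 0.17 turned in sign after both scalings.

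**Figure D2:**
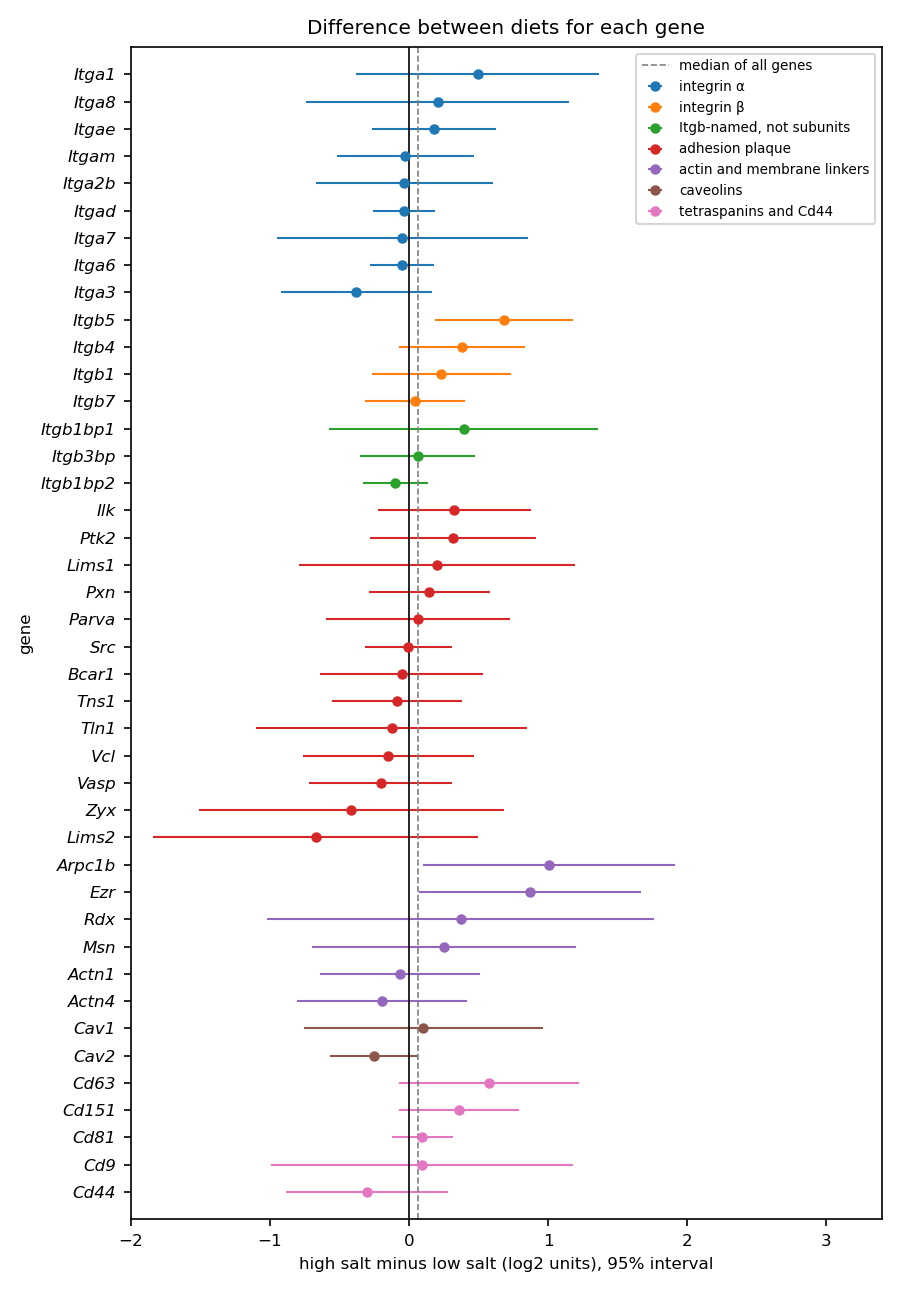
Difference between diets for each of the 42 genes (rows, coloured by role), in log2 units of high salt minus low salt, with the 95% interval of the limma fit, beside 0 (black line) and the median of all genes at 0.07 (dashed). The intervals of Itgb5, Arpc1b and Ezr lie above 0 before adjustment, and those of the other 39 genes include 0.

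Of the 13 plaque genes 5 were higher and 8 lower, with a median of -0.05 and a range from -0.67 to 0.33, and all 13 differences were smaller than 2 SE. After quantile normalization 2 were higher and 11 lower (15.4% higher, against 46.3% of all genes). Integrin-linked kinase (Ilk), a scaffold on the β tail, stood at 11.50, 11.59 and 12.16 on low salt and at 12.36, 11.90 and 11.97 on high salt. Low salt replicate 3 lay among the high salt values. The difference of 0.33 ± 0.22 became 0.20 after median centring, 0.15 after quantile normalization and 0.53 without low salt replicate 3. Focal adhesion kinase (Ptk2) was 9.62, 9.57 and 9.86 on low salt and 10.34, 9.49 and 10.18 on high salt, a difference of 0.32 ± 0.24, or 0.07 after quantile normalization.

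The PINCH adaptors that bind integrin-linked kinase differed in their pattern over arrays. Lims2 stood at 12.17, 10.34 and 11.79 on low salt and at 10.88, 10.56 and 10.85 on high salt, so that low salt replicates 1 and 3 were above and replicate 2 below all high salt arrays. Its difference was -0.67 ± 0.48, with a 95% interval from -1.84 to 0.50. Lims1 was 10.46 on low salt replicate 1 and from 11.57 to 11.91 on the other 5 arrays, a difference of 0.20 ± 0.40 that turned to -0.28 without that array. Parva, which joins this complex to actin, likewise had its lowest value on low salt replicate 1 (9.47, against 9.88 to 10.36) and differed by 0.06 ± 0.27.

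Talin (Tln1), the activator at the β tail, was 10.79, 9.35 and 10.65 on low salt and 10.21, 10.25 and 9.96 on high salt. Zyxin (Zyx), which gathers where adhesions bear tension, was 11.54, 9.85 and 11.11 on low salt and 10.71, 10.25 and 10.29 on high salt. In both genes low salt replicate 2 was the lowest array and replicates 1 and 3 were among the highest, as in Lims2. The differences were -0.12 ± 0.40 for Tln1 and -0.41 ± 0.44 for Zyx. Without low salt replicate 2 they were -0.58 ± 0.14 for Tln1, -0.91 ± 0.21 for Zyx and -1.22 ± 0.18 for Lims2, with adjusted p of 0.208, 0.204 and 0.110 (limma), and the 3 genes no longer overlapped between diets. Without low salt replicate 1 they were 0.14, -0.06 and -0.30.

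Leaving out low salt replicate 2 raised the counts over the whole array as well as among the 42. At an unadjusted p below 0.05 then stood 8 of the 42, 4 higher (Itgb5, Arpc1b, Ezr and Cd63) and 4 lower (Itga3, Tln1, Zyx and Lims2), or 19.0%, where 15.3% of all genes were higher and 4.71% lower. The diets did not overlap for 16 of the 42, 7 higher and 9 lower, where 25.2% and 16.0% of all genes did so. In both directions together that was 38.1% of the 42, against 41.2% of all genes. Leaving out an array can only keep or raise a count of genes without overlap. The distance of the 42 from these shares was not tested. Over the 42 genes the median turned to -0.05, where that of all genes was 0.06. Of the 42, 47.6% were then higher, against 56.1% of all genes. The smooth muscle markers moved with the lower genes: their mean was 12.13 and 12.23 on the remaining low salt arrays and 11.44 on the array left out, against 11.58 to 11.71 on high salt, and their part in the result was not tested. Without low salt replicate 1, by contrast, 4 of the 42 stood at an unadjusted p below 0.05, 3 higher (Itgb4, Itgb5 and Arpc1b, where 3.68% of all genes were) and 1 lower (Lims1, where 0.644% were). The diets were then apart for 6 higher and 1 lower of the 42, where 11.8% and 4.82% of all genes were.

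Vinculin (Vcl), which ties talin to actin, was 11.30, 11.31 and 12.00 on low salt and 11.09, 11.39 and 11.68 on high salt. The diets overlapped, and the difference of -0.15 ± 0.25 was opposite in sign to that of the second probe set, 0.44 ± 0.22 (9.99, 10.44 and 10.81 on low salt, 10.73, 10.87 and 10.95 on high salt). The remaining plaque genes differed by -0.20 ± 0.21 (Vasp, an actin polymerase), -0.09 ± 0.19 (Tns1, tensin, an actin linker), -0.05 ± 0.24 (Bcar1, the adaptor p130Cas), -0.00364 ± 0.13 (the kinase Src) and 0.15 ± 0.18 (paxillin, Pxn). In each of them the diets overlapped.

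Of the 6 linkers to actin and membrane 4 were higher and 2 lower, with a median of 0.31, and without low salt replicate 1 2 were higher and 4 lower, with a median of -0.04. The largest difference among the 42 was in Arpc1b, a subunit of the Arp2/3 complex that branches actin filaments. Its low salt arrays stood at 9.92, 11.08 and 11.30 and its high salt arrays at 11.64, 11.82 and 11.86. The lowest high salt array was 0.33 above the highest low salt array, the widest such gap among the 42. The difference was 1.01 ± 0.37, or 2.01-fold, with a 95% interval from 0.10 to 1.92 and an adjusted p of 0.803 (limma). Without low salt replicate 1, the lowest array, it was 0.59. Arpc1b is also abundant in myeloid cells. The mean of 8 macrophage and microglia markers was 9.02 to 9.42 on low salt and 9.37 to 9.83 on high salt. Of the 8, 7 were higher (87.5%, against 60.0% of all genes), with a median of 0.15 and a range from -0.06 (Cd68) to 1.19 (C1qa). Diets did not overlap for 2 of the 8, C1qa and Aif1, and overlapped for the other 6. Both were higher (25% of the 8, against 8.64% of all genes). The part of these cells in the result of Arpc1b was not tested.

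Ezrin (Ezr), radixin (Rdx) and moesin (Msn) form the family that ties membrane proteins such as Cd44 to actin. Ezr stood at 8.88, 9.98 and 9.58 on low salt and at 10.00, 10.36 and 10.70 on high salt. The diets were separate by 0.01 log2 units, and the difference of 0.87 ± 0.32 (95% interval 0.07 to 1.67, adjusted p = 0.803, limma), or 1.83-fold, was 0.57 without low salt replicate 1. Ezrin is known in the endfeet of astrocytes. On low salt replicate 2, where the astrocyte marker mean of 10.55 was as high as on high salt (10.24 to 10.56), Ezr lay just below the high salt arrays. On low salt replicate 3, where that mean was lowest (8.55), Ezr stood at 9.58, above its 8.88 on low salt replicate 1. The part of these cells in the difference was not tested.

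Rdx was 8.56, 10.75 and 10.04 on low salt and 10.33, 9.75 and 10.40 on high salt, and Msn was 10.75, 11.87 and 11.55 on low salt and 11.58, 11.13 and 12.21 on high salt. In both, low salt replicate 1 was the lowest array, and replicate 2 lay above all 3 high salt arrays in Rdx and above 2 of them in Msn. The differences of 0.37 ± 0.57 and 0.25 ± 0.39 turned to -0.24 and -0.07 without low salt replicate 1. The second, dimmer probe sets gave 0.02 ± 0.11 for Rdx and 0.03 ± 0.20 for Msn. The α-actinins, which cross-link actin at adhesions, were Actn4 (11.84, 11.00 and 11.59 on low salt, 11.03, 11.33 and 11.50 on high salt, -0.19 ± 0.25) and Actn1 (-0.06 ± 0.23, with a second probe set at -0.42 ± 0.34). The sign of Actn1 turned with either low salt replicate 3 or high salt replicate 2 left out.

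**Figure D3:**
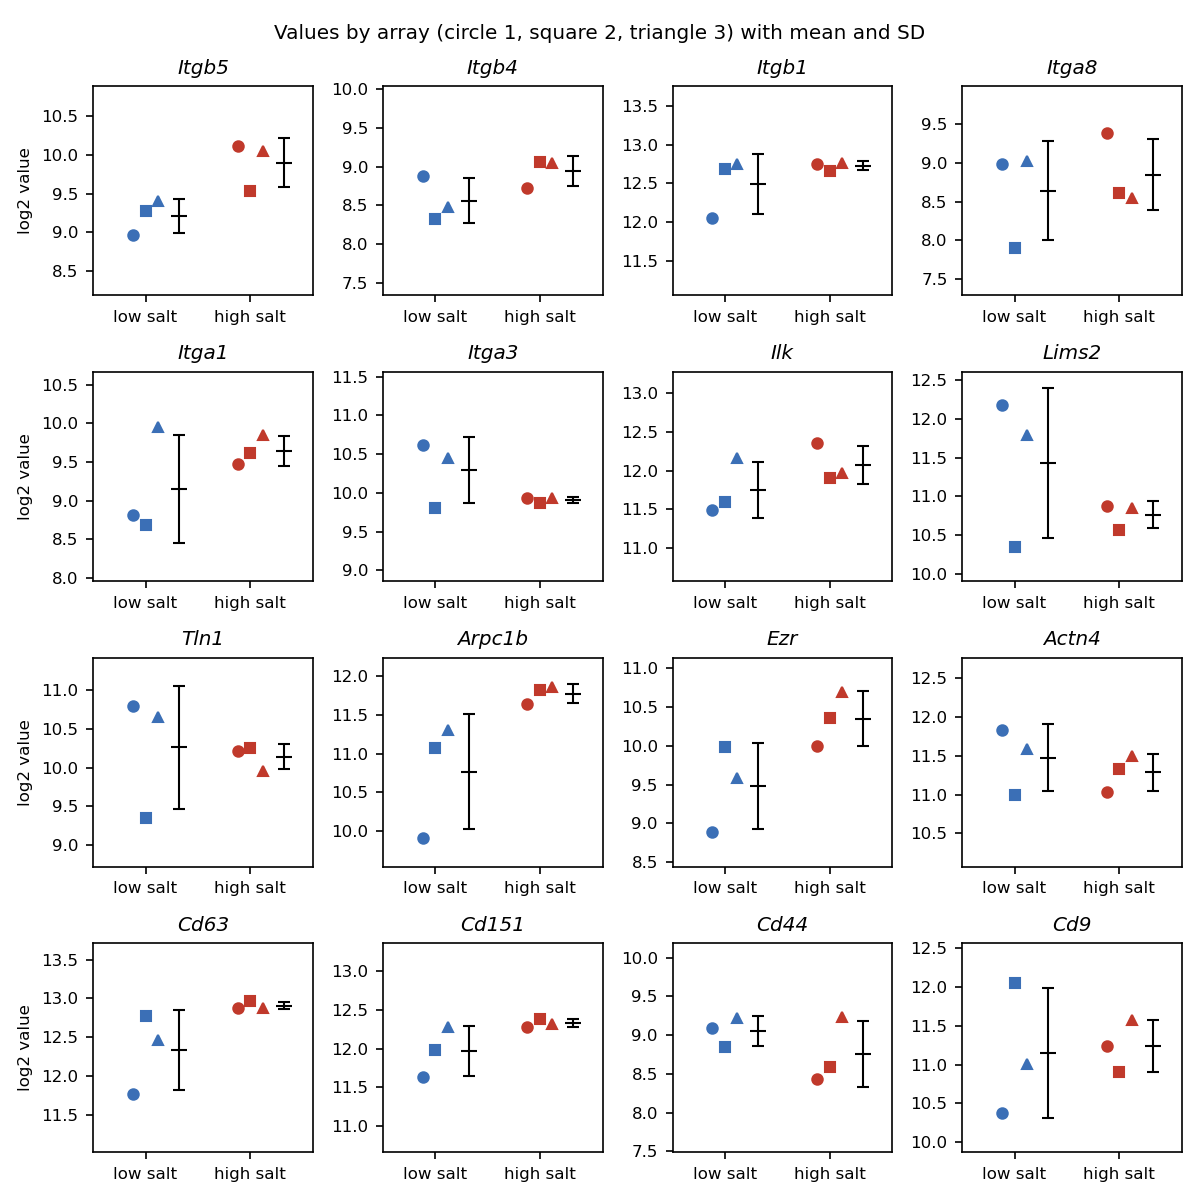
Log2 values of 16 genes by diet, 1 panel per gene with its own axis of equal height, showing replicates 1 (circle), 2 (square) and 3 (triangle) and, in black, the mean and SD of the 3 arrays. Arpc1b, Ezr, Itgb5, Cd63 and Cd151 do not overlap between diets, while the low salt values of Lims2 and Tln1 spread past the high salt values on both sides.

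Caveolins form the coat of caveolae, membrane pits rich in smooth muscle and endothelium. Cav1 stood at 11.23, 12.10 and 12.33 on low salt and at 11.97, 11.58 and 12.41 on high salt, an overlap with a difference of 0.10 ± 0.35 that turned to -0.03 after median centring and -0.06 after quantile normalization. Its second probe set, at a level of 6.48 below the arrays' lower quartile, was opposite in sign at -0.49 ± 0.24. Cav2 was 6.71, 6.63 and 6.68 on low salt and 6.28, 6.32 and 6.66 on high salt, close to the arrays' lower quartile. High salt replicate 3 lay within the low salt range, and the difference was -0.25 ± 0.13, or -0.38 after median centring. Both are compared with 8 endothelial markers, whose mean was 9.28 to 9.81 on low salt and 9.75 to 9.97 on high salt.

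Tetraspanins are small membrane proteins that gather integrins into clusters. With Cd44, 4 of these 5 genes were higher and 1 lower. After either scaling 2 were higher and 3 lower (40% higher, against 42.8% of all genes after median centring and 46.3% after quantile normalization). Cd63, which also marks late endosomes and exosomes, stood at 11.76, 12.78 and 12.46 on low salt and at 12.88, 12.96 and 12.88 on high salt. The diets were separate by 0.10, and the difference of 0.57 ± 0.26 (95% interval -0.07 to 1.22, adjusted p = 0.803, limma), or 1.49-fold, was 0.29 without low salt replicate 1. Cd151, the tetraspanin bound to laminin-binding integrins, was 11.64, 11.99 and 12.28 on low salt and 12.28, 12.38 and 12.32 on high salt. Here low salt replicate 3 and high salt replicate 1 differed by 0.00085, and the difference of 0.36 ± 0.17 was 0.23 after median centring, 0.19 after quantile normalization and 0.19 without low salt replicate 1.

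Cd9 and Cd81, tetraspanins found in many cell types, differed by less than their SE or little more. Cd9 was 10.38, 12.05 and 11.01 on low salt and 11.24, 10.91 and 11.58 on high salt, a difference of 0.09 ± 0.44. The low salt arrays of Cd9 held both its lowest and its highest value, and the sign turned after either scaling. Cd81 lay between 13.05 and 13.23 on all 6 arrays and differed by 0.10 ± 0.09, turning to -0.03 after median centring and -0.00575 after quantile normalization. Cd44, the hyaluronan and osteopontin receptor, was 9.09, 8.84 and 9.23 on low salt and 8.44, 8.59 and 9.24 on high salt. High salt replicates 1 and 2 were below and replicate 3 above every low salt array. The difference was -0.30 ± 0.24, or -0.52 after quantile normalization, and the second, dimmer probe set gave 0.19 ± 0.19.

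Further genes of the pathway were compared as counts. Their lists were chosen with earlier results of these data known, so the counts are a description and not a test. Of 87 that are not among the 42, by limma 0 were called, and 63 had positive and 24 negative differences (72.4% positive, against 60.0% of all genes, median 0.17). At an unadjusted p below 0.05 stood 9, all higher, where 5.72% of all genes were higher and 0.711% lower. Median centring left 47 of the 87 higher (54%, against 42.8% of all genes, median 0.04). Quantile normalization left 45 (51.7%, against 46.3% of all genes, median 0.01). Of 40 genes of adhesion signalling 26 were higher (median 0.17), with Pdlim5 1.24 ± 0.33, Dag1 (dystroglycan, a laminin receptor) 0.62 ± 0.17 and Lasp1 0.57 ± 0.15 higher. Their median turned to -0.02 after quantile normalization, where that of all genes was also -0.02. Of 20 matrix ligands of integrins 19 were higher (median 0.24) and 5 stood at an unadjusted p below 0.05 (osteopontin, Tgfbi, periostin, fibronectin and tenascin C). After either scaling 14 of the 20 were higher (70%, against 42.8% of all genes after median centring and 46.3% after quantile normalization). Without low salt replicate 1, 13 were higher (65%, against 61.5% of all genes).

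Other tetraspanins were higher in 12 of 18 genes, with a median of 0.05. It turned to -0.08 after median centring, where that of all genes was -0.06. Among them Tspan4 stood at 9.68, 9.91 and 10.24 on low salt and at 11.15, 11.14 and 10.62 on high salt, a difference of 1.03 ± 0.21 with an adjusted p of 0.803 (limma). Of the 6 other genes of the Arp2/3 complex 5 were higher, with a median of 0.43, or 0.30 after median centring, 0.24 after quantile normalization and 0.18 without low salt replicate 1. Arpc5 was 10.04, 11.54 and 11.34 on low salt and 11.55, 11.65 and 11.94 on high salt, low on the same array as Arpc1b. Of 3 other genes of caveolae 1 was higher and 2 lower.

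The 42 genes fell into groups by their lowest array. The 17 that were lowest on low salt replicate 1 included Arpc1b, the ezrin family, Cd63, Cd151, Cd9, Cd81, Itgb1, Itgb5, Ilk, Lims1, Parva, Cav1 and Itgb1bp1. In 9 (21.4%, against 13.3% of all genes) low salt replicate 2 was the lowest and low salt replicate 1 or 3 the highest, as it was in the smooth muscle marker mean. These were Itga1, Itga3, Itga6, Itga7, Tln1, Zyx, Lims2, Bcar1 and Actn4. The groups were read from the values and carry no test.

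**Figure D4:**
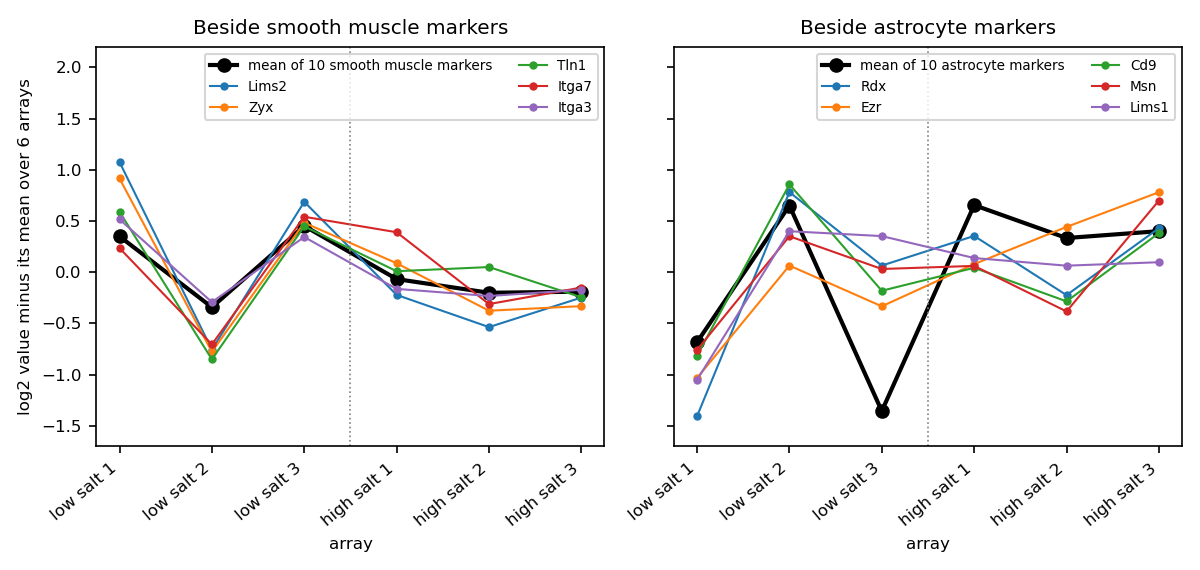
Values on the 6 arrays, each minus its own mean (log2 units), for genes chosen after their values were seen, beside the mean of 10 smooth muscle markers (left, black) and of 10 astrocyte markers (right, black); lines join the values of a gene and do not show an order of arrays. Left, Lims2, Zyx, Tln1, Itga7 and Itga3 are lowest on low salt replicate 2, as the marker mean is. Right, Rdx, Ezr, Cd9, Msn and Lims1 are lowest on low salt replicate 1, whereas the marker mean is lowest on replicate 3.

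Marker sets of further cell types were also read. The difference between diet means was 0.93 for 2 red blood cell markers and 0.04 for 6 of neurons (whose median was -0.02). For 5 of oligodendrocytes it was 0.30, with 3 higher and 2 lower. For 3 of Schwann cells it was 0.20, with 1 higher (S100b, also an astrocyte marker), 2 lower and a median of -0.02. For 6 of fibroblasts and meninges it was -0.18, with 4 higher, 2 lower (Dpt by -1.40) and a median of 0.07. Every one of the 42 genes moved by more than 1.5 times, or turned in sign, after a scaling or with 1 array left out, and 32 of them did so without low salt replicate 1. The typical 95% interval of a gene among the 42 reached 0.59 log2 units to each side (median), against 0.46 for all genes.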

How the data were processed

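Gene expression was measured on 6 Affymetrix rat arrays, 3 pools per diet. The authors processed the arrays with RMA (robust multi-array averaging) per the submitters' processing notes (version not given in the sources used here), and the deposited values are on a log scale taken as log2 from their range. Of 15923 rows, 57 control probe sets were left out. Names came from the platform annotation (12783 probe sets with 1 symbol, 312 with several, 2771 with none here), and a gene was represented by the probe set of highest mean over the 6 arrays. All 42 members matched RefSeq (GRCr8) by Entrez identifier, with 0 symbols changed. 16 members had 19 other probe sets, 8 of them opposite in sign.

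High salt was compared with low salt in limma 3.58.1 (R 4.3.3; lmFit and eBayes, no block) with Benjamini-Hochberg adjustment over 15866 probe sets. The steps were tested on simulated data. SDs are over 3 arrays, and their number limits the precision. Pools are of separate rats, so that their spread holds pool and array error together. Members, lists and tests were chosen with earlier results of these data known. Described array by array are the 3 members of lowest unadjusted p in each role group, with Itga8, Itgb1, Vcl, Tln1, Ilk, Cav1, Cd44 and Cd9 (the rule also held Itga5, Itgav and Itgb3, not analysed here), and further members chosen after their values were seen. Alternatives were leaving out each array, blocking on replicate number, centring arrays on their median, quantile normalization, dropping probe sets under the 40th percentile of mean value, weighting arrays by quality, a trended or a robust prior variance, averaging the probe sets of a gene, adjusting over 1 probe set per gene and a threshold of 0.1. The count of members that do not overlap with 1 array left out was added after seeing the data.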

Additional observations from a re-analysis of the deposited data

How the results depend on the processing

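By limma 0 probe sets and 0 of the 42 genes were called in each of the 16 alternatives (846 probe sets at an unadjusted p below 0.05, and 366 to 2722 over the alternatives). The number of the 42 at an unadjusted p below 0.05 was 6 with array weights, whose estimation stopped before full convergence, and ran from 1 (without high salt replicate 1) to 8 (without low salt replicate 2). Of 15866 probe sets, 1439 stood there with array weights, 366 without high salt replicate 1 and 2722 without low salt replicate 2. Genes whose diets did not overlap numbered from 7 to 16 with 1 array left out (16 without low salt replicate 2, or 38.1% against 41.2% of all genes, and 7, or 16.7%, without each other array in turn, against 16.6% to 23.6% of all genes). Leaving out an array can only keep or raise this count (5 with all arrays), so a rise is in part built in. The median over the 42 genes was -0.068 when arrays were median-centred (all genes -0.064), -0.070 once quantile-normalized (all genes -0.019) and -0.011 with array weights (all genes 0.048). It ran from -0.046 (without low salt replicate 2) to 0.14 with 1 array left out. With the replicate number as a block 3 of the 42 stood at an unadjusted p below 0.05, as did 716 of 15866 probe sets, and 0 were called. Same-numbered arrays of both diets deviated from their diet means with correlations of 0.04, -0.27 and 0.04, so that the numbers are not taken as a pairing. Among single genes 20 of 42 kept their sign in every alternative run. After median centring the sign turned for Itgb3bp -0.068, Itgb7 -0.088, Parva -0.068, Cav1 -0.027, Cd9 -0.038 and Cd81 -0.034. After quantile normalization the sign turned for Itga8 -0.017, Itgb3bp -0.15, Pxn -0.073, Parva -0.17, Lims1 -0.025, Cav1 -0.061, Cd9 -0.13 and Cd81 -0.00575. With array weights the sign turned for Itgb3bp -0.044, Itgb7 -0.00276, Parva -0.098, Lims1 -0.074, Src 0.026 and Cav1 -0.14. With probe sets averaged per gene the sign turned for Itga7 0.065, Vcl 0.14 and Cav1 -0.19. The cause was not tested. With 1 array left out, differences that turned ran for Actn1 from -0.26 to 0.11, Bcar1 from -0.27 to 0.18, Cav1 from -0.22 to 0.32, Cd9 from -0.29 to 0.54, Itga2b from -0.24 to 0.18, Itga7 from -0.41 to 0.21, Itga8 from -0.16 to 0.40, Itgam from -0.12 to 0.15, Itgb1bp1 from -0.061 to 0.70, Itgb3bp from -0.063 to 0.17, Itgb7 from -0.079 to 0.12, Lims1 from -0.28 to 0.45, Msn from -0.065 to 0.51, Parva from -0.21 to 0.21, Rdx from -0.24 to 0.86, Src from -0.095 to 0.072, Tln1 from -0.58 to 0.14, Tns1 from -0.22 to 0.080, Vasp from -0.34 to 0.00832 and Vcl from -0.29 to 0.083. The filter at the 40th percentile left 36 of the 42 genes, with a median of 0.095 (all genes left 0.18). Signal near the arrays' lower quartile limits Cav2 and Itgb1bp2. The next lowest means over the arrays were those of Itga6 (7.04), Itgb7 (7.17), Itgae (7.34) and Itgam (7.45).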
